A study of Mus musculus with 7 samples.

Results

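Apolipoproteins are the protein part of the particles that carry fat and cholesterol in blood, and most of them are made in the liver. Accessible chromatin at 9 apolipoprotein genes (Apoa1, Apoc3, Apoa4, Apoa5, Apoe, Apoc1, Apob, Apoh and Apoa2) was examined in livers of male C57BL/6 mice at 8 weeks of age. Benzonase and Cyanase, endonucleases that work in crude lysates, were used on pulverized frozen liver, and DNase I was used on nuclei purified from fresh liver. The labels list 3 Benzonase and 3 Cyanase samples, 1 each at 0.25, 1 and 4 U, and 1 DNase I sample. The paper describes its DNase I tags as combined from replicates, which the labels do not list apart. The labels give no treatment and no genotype beyond the strain, and whole liver holds other cells besides hepatocytes. The nuclease and the preparation of the tissue change together between these groups, so their parts in any difference from DNase I cannot be told apart.

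The deposited data were 1 list per nuclease of hotspots, which are stretches where the cut ends of DNA cluster above background. Each list was called on the pooled tags of its nuclease and gave the position of each hotspot on mm9 and no number of tags, so depth per hotspot is unknown and there is no spread between replicates. No test between nucleases was therefore possible, and the intervals given below (95%) cover counting error only. Windows reached from 20 kb before to 20 kb after each gene body, and windows that overlapped were joined, which gave 5 loci with 364.6 kb in all. The windows held 62 of 60910 Benzonase hotspots, 59 of 57675 Cyanase hotspots and 64 of 72286 DNase I hotspots. Hotspots of any list that overlapped by at least 1 bp were merged, which gave 70 regions in the windows of 94491 regions in all.

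Apolipoprotein genes are partly arranged in clusters. Apoa1, Apoc3, Apoa4 and Apoa5 lie together on chromosome 9, Apoe and Apoc1 lie together on chromosome 7, and Apob, Apoh and Apoa2 stand alone on chromosomes 12, 11 and 1. Genes of this kind are read in hepatocytes under liver-enriched transcription factors such as HNF4A, FOXA, HNF1 and C/EBP proteins, which bind promoters and enhancers that nucleases can cut.

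Promoter sequences were taken from RefSeq (GRCm38.p6), from 250 bases before to 50 bases after a transcription start site (TSS), and placed on mm9 by exact match, which succeeded for 7 of the 9 genes. Those of Apoa1, Apob and Apoa4 are shown because the Benzonase hotspot there had the largest ratios of width to the DNase I hotspot over the same TSS, and those of Apoh and Apoa2 because they had the lowest GC content of the 7. RefSeq gave 11 entries for these 7 genes, and the one nearest to an annotated TSS was used for each gene. Capitals mark matches to the motifs named after them.
Apoa1, chr9:46036463-46036762, plus strand: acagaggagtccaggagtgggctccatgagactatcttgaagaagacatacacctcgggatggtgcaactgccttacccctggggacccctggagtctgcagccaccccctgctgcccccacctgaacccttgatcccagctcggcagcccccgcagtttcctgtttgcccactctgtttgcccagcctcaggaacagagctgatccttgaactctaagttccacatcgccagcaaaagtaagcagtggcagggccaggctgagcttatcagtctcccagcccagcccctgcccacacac
Apoa4, chr9:46048677-46048976, plus strand: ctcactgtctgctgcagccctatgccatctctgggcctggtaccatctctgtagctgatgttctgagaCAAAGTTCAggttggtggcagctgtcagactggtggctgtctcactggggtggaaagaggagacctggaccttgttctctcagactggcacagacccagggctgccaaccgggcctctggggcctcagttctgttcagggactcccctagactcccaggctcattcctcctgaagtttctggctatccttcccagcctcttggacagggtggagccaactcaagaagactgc
Apob, chr12:7984233-7984532, plus strand: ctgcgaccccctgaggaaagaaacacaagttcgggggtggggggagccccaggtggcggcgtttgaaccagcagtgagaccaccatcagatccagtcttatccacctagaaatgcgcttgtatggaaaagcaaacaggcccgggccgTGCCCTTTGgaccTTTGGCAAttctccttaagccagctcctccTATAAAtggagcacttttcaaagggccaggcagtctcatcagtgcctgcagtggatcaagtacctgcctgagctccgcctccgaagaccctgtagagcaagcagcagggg
Apoh, chr11:108256361-108256660, plus strand: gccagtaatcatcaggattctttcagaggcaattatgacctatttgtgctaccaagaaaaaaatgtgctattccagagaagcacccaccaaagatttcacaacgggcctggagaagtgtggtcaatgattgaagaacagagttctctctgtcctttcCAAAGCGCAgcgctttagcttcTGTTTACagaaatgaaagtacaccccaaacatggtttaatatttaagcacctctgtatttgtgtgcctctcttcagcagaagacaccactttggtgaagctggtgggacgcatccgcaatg
Apoa2, chr1:173154935-173155234, plus strand: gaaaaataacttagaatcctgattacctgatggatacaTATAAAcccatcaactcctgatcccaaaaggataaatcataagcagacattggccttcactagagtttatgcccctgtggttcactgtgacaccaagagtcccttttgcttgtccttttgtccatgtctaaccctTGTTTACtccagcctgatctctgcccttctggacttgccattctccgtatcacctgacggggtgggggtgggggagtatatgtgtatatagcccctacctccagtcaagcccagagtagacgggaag

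Both strands were searched for 6 motifs. The core of the direct repeats bound by nuclear receptors such as HNF4A was written CAAAGNNCA. The FOXA core was TGTTTAC, the C/EBP core was TTGCNNAA, the HNF1 core was GTTAAT and the Sp1 core was GGGCGG. The box that positions RNA polymerase near a TSS (the TATA box) was written TATAAA. The nuclear receptor core was found in the promoters of Apoa4, Apob and Apoh, and in 6.36% of all 32851 promoters of this length. Its first base lay at -182 in Apoa4, at -103 on the opposite strand in Apob and at -93 in Apoh, counted from the RefSeq TSS. The FOXA core was found at -71 in Apoh and at -77 in Apoa2, and in 3.65% of all promoters. In Apob a C/EBP core on the opposite strand began at -90, between the nuclear receptor core and a TATA box at -60, and C/EBP cores were found in 10.8% of all promoters. The letters TATAAA were also found at -212 in Apoa2, at -56 in Apoa5 and from -100 to -91 in Apoe. They were found in 13.6% of all promoters. The match in Apoe, at an internal TSS (20283970), was on both strands, which overlapped there, and no other motifs overlapped each other in these promoters. The HNF1 core (7.1% of all promoters) and the Sp1 core (35.7%) had no match in these 7 windows. The other entries differed, since that of Apoe nearest its annotated 5′ end (TSS at 20284537) had no match to any motif and another of Apoe (TSS at 20283747) had an HNF1 core at -172 and a FOXA core at -5. A further entry of Apoa2, with its TSS 3490 bp from the nearest annotated one, had 2 C/EBP cores. A further entry of Apoa5 had the same TATAAA match, at -31 from the TSS of that entry. A match is a description of letters and not a measured binding site.

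All 300 bases of each of the 7 promoters used lay inside hotspots of each list, and the same share over all promoters was not computed. The further entry of Apoa2 had 300 bases in Benzonase and in Cyanase hotspots and 150 in DNase I hotspots. The GC content of the 7 promoters was 59.33% in Apoa1, 57.33% in Apoa4, 56.67% in Apob, 56.0% in Apoa5, 51.0% in Apoe, 47.0% in Apoa2 and 44.0% in Apoh. The median over all promoters was 52.67%. The number of CpG dinucleotides was 4 in Apoa1, 1 in Apoa4, 9 in Apob, 4 in Apoa5, 12 in Apoe, 3 in Apoa2 and 5 in Apoh, and the median of all promoters was 7.

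Each of the 9 genes had at least 1 TSS of a protein-coding transcript inside a hotspot of each list. Over all 22365 genes the same was true of 57.4% for Benzonase, 55.7% for Cyanase, 47.4% for DNase I and 46.1% for all 3 lists. Of the 30 distinct TSSs of the 9 genes, 27 lay inside Benzonase hotspots, 27 inside Cyanase hotspots and 26 inside DNase I hotspots. The exceptions were an internal TSS of Apob, the downstream TSS of Apoa5 and TSSs of Apoh, which are described with their genes.

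The hotspots over these TSSs differed in width between nucleases. Widths were compared over 1 TSS per gene, the one nearest the 5′ end among those inside hotspots of all 3 lists. The Benzonase hotspot was wider than the DNase I hotspot at 9 of 9 genes, where 88.3% of 10275 genes with such a TSS showed the same, and the Cyanase hotspot was wider at 9 of 9, where 82.6% did. These shares are close to those of all genes. The ratio of Benzonase to DNase I width was 5.245 at Apoa1, 3.344 at Apob, 2.188 at Apoa4 and 1.778 at Apoa5. It was 1.202 at Apoh, 1.082 at Apoc3 and at Apoe, 1.032 at Apoa2 and 1.014 at Apoc1. The median of the 9 genes was 1.202, below the 1.418 of all genes, and 4 of 9 (44.4%) had a ratio over 1.5, beside 43.5% of all genes. With the widest hotspot over any TSS in each list, Apoh compares hotspots at different TSSs, and the median of the 9 genes becomes 1.778 beside 1.42. At each of the 9 genes except Apoh the Benzonase and Cyanase widths differed from each other by less than either differed from the DNase I width. At Apoh they were 1148 bp (Benzonase), 1013 bp (Cyanase) and 955 bp (DNase I), so Cyanase was nearer to DNase I. The share of all genes with this order was not computed.

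**Figure D1:**
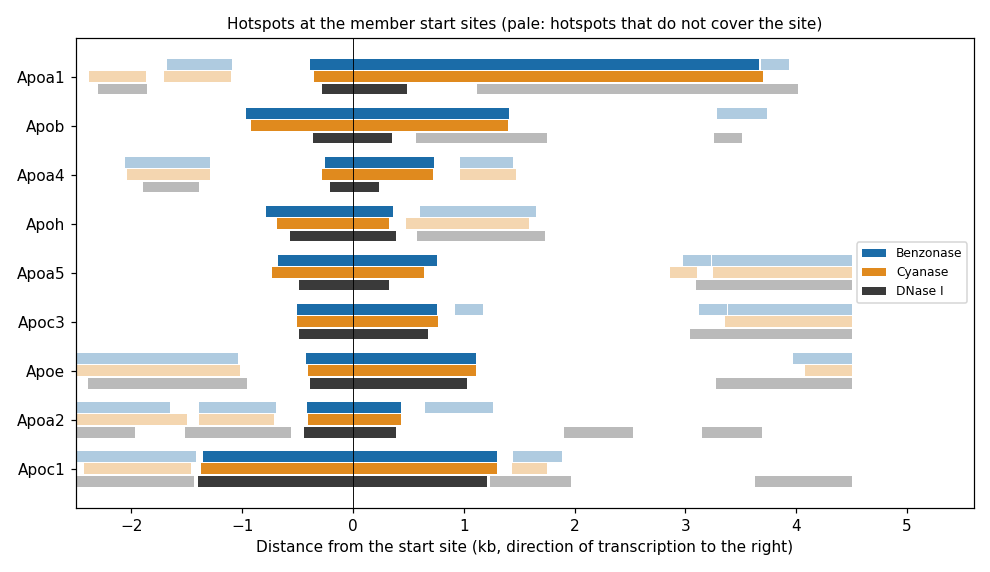
Hotspots of the 3 lists around a TSS of each of the 9 genes, with the distance from the TSS in kb on the horizontal axis and 1 row of bars per nuclease and gene. Solid bars cover the TSS and pale bars do not, and bars that reach the edge of the drawn range go on beyond it. The DNase I bar at Apoa1 is 774 bp wide beside Benzonase and Cyanase bars of 4060 and 4052 bp, and the 3 bars at Apoc1 have nearly the same bounds.

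Apoa1 (ENSMUSG00000032083.8, plus strand, chr9:46036663-46038549) encodes the main protein of high-density lipoprotein. A single Benzonase hotspot of 4060 bp ran from 46036272 to 46040331, and a single Cyanase hotspot of 4052 bp ran from 46036315 to 46040366. Both covered the whole gene body and reached 1782 and 1817 bp past its 3′ end. DNase I had a pair of hotspots instead, 1 of 774 bp over the TSS from 46036381 to 46037154 and 1 of 2902 bp from 46037779 to 46040680, and covered 66.9% of the gene body. The 624 bases between them, from 46037155 to 46037778, had a GC content of 53.21% and held the third of the 4 exons (154 bp) with parts of the introns on both sides. The outer bounds of the 3 lists were close, since DNase I started 109 bp after Benzonase and ended 349 bp after it. A further Benzonase hotspot of 254 bp followed, from 46040344 to 46040597.

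Only 0.402% of all genes had as large a share of the gene body in Benzonase hotspots as Apoa1, and 0.563% did for DNase I. The central 150 bases of the stretch that lacked DNase I hotspots, in the intron after the third exon, are shown with CpG dinucleotides in capitals, as the break between the DNase I hotspots inside the widest hotspot of the other lists. They had a GC content of 59.33% and 1 CpG.
Apoa1 stretch, chr9:46037392-46037541, plus strand: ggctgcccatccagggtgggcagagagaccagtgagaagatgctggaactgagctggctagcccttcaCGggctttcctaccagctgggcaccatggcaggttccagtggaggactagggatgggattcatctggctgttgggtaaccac

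Apoc3 (ENSMUSG00000032081.3, minus strand, chr9:46041016-46043719), which encodes an inhibitor of lipoprotein lipase and of the uptake of remnant particles, faces Apoa1 end to end. Its 4 TSSs lay in hotspots of 1265 bp (Benzonase, 46042960 to 46044224), 1273 bp (Cyanase, 46042949 to 46044221) and 1169 bp (DNase I, 46043042 to 46044210). The upstream bounds were within 14 bp of each other, and the DNase I hotspot was shorter on the side of the gene body. A Benzonase hotspot of 251 bp, the narrowest width in that list, lay over an exon of Apoc3 from 46042546 to 46042796, with a GC content of 63.75% and no hotspot of the other lists.

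Apoa4 (ENSMUSG00000032080.6, plus strand, chr9:46048779-46051542) encodes a protein of chylomicrons and high-density lipoprotein. Its TSS lay in hotspots of 978 bp (Benzonase, 46048530 to 46049507), 997 bp (Cyanase, 46048503 to 46049499) and 447 bp (DNase I, 46048571 to 46049017). DNase I stopped 238 bp after the TSS, where Benzonase went on for 728 bp and Cyanase for 720 bp. The 482 bases that both enzymes covered beyond the DNase I hotspot had a GC content of 58.3%, and 268 of them were exonic. A further region of Benzonase and Cyanase alone, 507 bp wide with a GC content of 50.1%, lay in an intron of Apoa4 from 46049741 to 46050247. Together these hotspots covered 43.9% of the Apoa4 gene body for Benzonase, 44.4% for Cyanase and 8.65% for DNase I. Upstream, hotspots of 770, 755 and 511 bp (in the order Benzonase, Cyanase and DNase I) formed a region that ended 1288 bp before the TSS.

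Apoa5 (ENSMUSG00000032079.5, plus strand, chr9:46076716-46080002) encodes a protein that increases the clearance of triglycerides by lipoprotein lipase. Its hotspots were 1440 bp (Benzonase, 46076039 to 46077478), 1374 bp (Cyanase, 46075986 to 46077359) and 810 bp wide (DNase I, 46076231 to 46077040). Both TSSs, at 46076716 and 46077161, lay inside the Benzonase and Cyanase hotspots, and the DNase I hotspot held only the upstream one. The 319 bases of Benzonase and Cyanase without DNase I around the downstream TSS had a GC content of 58.31%.

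Between Apoa4 and Apoa5 the sequence held 4 intergenic regions, from 46063844 to 46069999, each with hotspots of all 3 lists. Their distances to the upstream TSS of Apoa5 ran from 11282 to 6717 bp, and their widths were 1591, 777, 1362 and 971 bp. In the region from 46066933 to 46068294 the DNase I hotspot was the wider one, with 1362 bp beside 740 bp for Benzonase and 689 bp for Cyanase, and the 553 bases it covered alone had a GC content of 46.65%. Upstream of Apoa1, in the neighboring gene Sik3 and between the genes, 7 regions ended between 12217 and 1091 bp before the Apoa1 TSS. Of these, 4 had hotspots of all 3 lists, and the one nearest Apoa1 (46034953 to 46035572) had hotspots of Benzonase and Cyanase without DNase I.

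The chromosome 9 cluster as a whole (83.34 kb) held 22 Benzonase, 20 Cyanase and 18 DNase I hotspots, which covered 26.65%, 24.88% and 21.48% of its bases. Of its 20 regions, 15 (75%, Wilson interval 53.13% to 88.81%) had hotspots of all 3 lists and 0 had DNase I alone. DNase I alone made up 28.3% of the regions of the series. Its share there was 1.89% of regions with a TSS and 32.5% of those without, and this cluster was not split in that way. The interval for 0 of 20 reaches up to 16.11%, but it treats regions that lie side by side in the same locus as separate draws. It is therefore no test against the series, and no departure from the series is read from it.

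**Figure D2:**
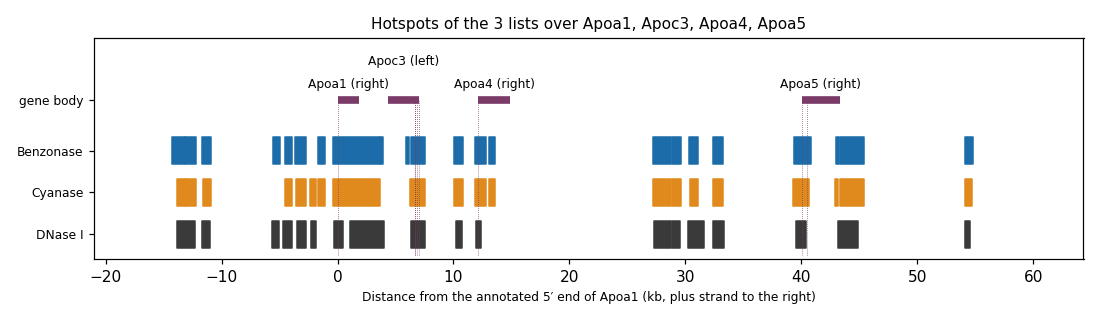
Hotspots of Benzonase, Cyanase and DNase I along the chromosome 9 cluster, with the distance from the annotated start of Apoa1 in kb on the horizontal axis, the 4 gene bodies above and their TSSs as dotted lines (right or left gives the direction of transcription). The break in the DNase I row just after the Apoa1 TSS is the 624-bp stretch that Benzonase and Cyanase cover, and no bar of DNase I stands without a bar of another list.

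Apoe (ENSMUSG00000002985.9, minus strand, chr7:20281458-20284515) encodes a protein through which the liver takes up remnant particles, and Apoc1 (ENSMUSG00000040564.7, minus strand, chr7:20274833-20278007) encodes a small protein that hinders the uptake of such particles. The 9 TSSs of Apoe lay in hotspots of 1531 bp (Benzonase, 20283405 to 20284935), 1522 bp (Cyanase, 20283404 to 20284925) and 1415 bp (DNase I, 20283488 to 20284902). Both TSSs of Apoc1 lay in hotspots of 2652 bp (Benzonase, 20276706 to 20279357), 2681 bp (Cyanase, 20276703 to 20279383) and 2615 bp (DNase I, 20276794 to 20279408). Starts at both genes lay 83 to 91 bp further out for Benzonase and Cyanase than for DNase I, and ends differed by 23 to 51 bp. The Apoc1 hotspots were the widest of this locus in each list.

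DNase I covered more of this cluster than the other enzymes. The same held over the genome, with 1.953% beside 1.811% for Benzonase and 1.658% for Cyanase, and not in the chromosome 9 cluster. In the chromosome 7 cluster DNase I had 15 hotspots with a median width of 1208 bp over 32.62% of the 49.68 kb. Benzonase (905 bp, 29.05%) and Cyanase (957 bp, 28.68%) had 14 hotspots each. In the region that lay between Apoc1 and Apoe, from 20279424 to 20281235, the DNase I hotspot was 1792 bp wide, where those of Benzonase and Cyanase were 1125 and 965 bp. The 687 bases nearest Apoe that DNase I alone covered had a GC content of 44.98%. On the far side of Apoc1, regions of DNase I alone lay at 20268971 to 20269597 (627 bp, GC 41.31%) and at 20273362 to 20274380 (1019 bp, GC 49.95%).

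Of the 15 regions of the chromosome 7 cluster, 12 (80.0%, 54.81% to 92.95%) had hotspots of all 3 lists. The neighboring apolipoprotein genes Apoc2, the activator of lipoprotein lipase, and Apoc4 also had TSSs in hotspots of all 3 lists. A single region of Benzonase and Cyanase without DNase I, 591 bp wide with a GC content of 52.62%, lay over exons of Tomm40, which encodes a mitochondrial import channel.

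**Figure D3:**
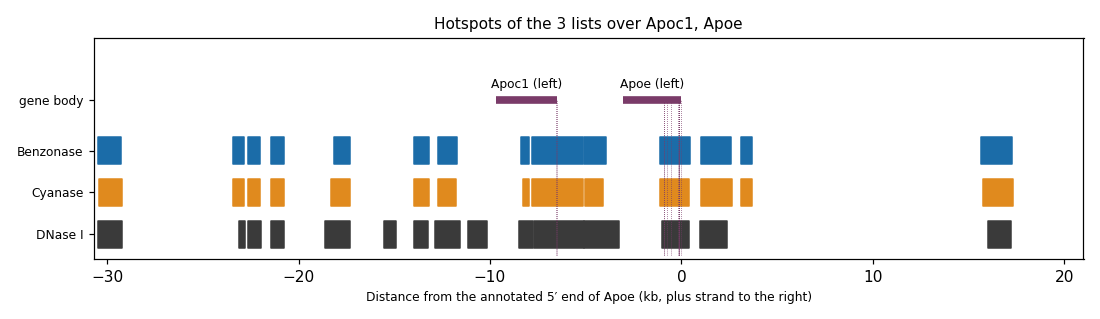
Hotspots of the 3 lists along the chromosome 7 cluster, with the distance from the annotated start of Apoe in kb on the horizontal axis (genomic direction, both genes read to the left). The rows have nearly the same bars at Apoc1 and Apoe, and DNase I has 2 bars without partners on the far side of Apoc1.

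Apob (ENSMUSG00000020609.8, plus strand, chr12:7984454-8023641) encodes the large scaffold protein of very-low-density lipoprotein. In its window 4 of 11 regions were of DNase I alone (36.4%, 15.17% to 64.62%), beside 28.3% of all regions. This was the largest share of the 5 loci, but no departure from the series is read from it. The main TSSs of Apob lay at 7984454 and 7984585. They were inside hotspots of 2374 bp (Benzonase, 7983490 to 7985863), 2322 bp (Cyanase, 7983532 to 7985853) and 710 bp (DNase I, 7984094 to 7984803). DNase I had a further hotspot of 1186 bp from 7985023 to 7986208. Thus at Apob, as at Apoa1, DNase I gave a pair of hotspots where Benzonase and Cyanase gave 1. The 562 bases upstream of the DNase I hotspot that only the other enzymes covered had a GC content of 50.71%, the 219 bases between the DNase I hotspots had 52.97%, and the 345 bases that DNase I alone covered downstream had 49.57%.

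Regions of DNase I alone lay at 4 places in the Apob window. They were 589 bp from 7964657 to 7965245, 389 bp in an intron from 7993843 to 7994231, 1086 bp from 8017878 to 8018963 and 281 bp from 8019025 to 8019305. The last 2 lay wholly in exon sequence near the 3′ end of the gene, and the 281-bp hotspot held an annotated internal TSS at 8019165 that the other lists did not cover. Their GC contents were 31.07%, 45.5%, 40.52% and 46.26%. The first, 19209 bp upstream of the gene, was the region with the lowest GC content of the 70, and its central 150 bases (GC 33.33%) are shown for comparison with the Apoa1 stretch, with CpG dinucleotides in capitals.
Apob upstream region, chr12:7964876-7965025, plus strand: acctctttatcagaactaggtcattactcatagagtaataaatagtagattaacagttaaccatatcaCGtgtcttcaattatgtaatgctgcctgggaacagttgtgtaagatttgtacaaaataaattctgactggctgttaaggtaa

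The Apob window held 11 DNase I hotspots over 10.49% of its 79.19 kb, beside 6 Benzonase hotspots (7.261%) and 5 Cyanase hotspots (6.65%). DNase I covered 12.4% of the gene body, Benzonase 7.05% and Cyanase 5.07%. Of its 11 regions, 4 had hotspots of all 3 lists, 2 had Benzonase and DNase I, and 1 had Cyanase alone. The other 4 had DNase I alone (36.4%, 15.17% to 64.62%), beside 28.3% of the regions of the series. Regions side by side in 1 window are not separate draws, so this is no test against the series.

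Apoh (ENSMUSG00000000049.5, plus strand, chr11:108204668-108275710) encodes beta-2-glycoprotein I, a plasma protein that binds phospholipids. Its main TSS at 108256607 lay in hotspots of 1148 bp (Benzonase, 108255818 to 108256965), 1013 bp (Cyanase, 108255921 to 108256933) and 955 bp (DNase I, 108256041 to 108256995). A further TSS 5′ of it, at 108204668, lay in a region shared with a TSS of Prkca, a protein kinase C gene, and with a GC content of 63.38%. There the Benzonase hotspot was 2010 bp wide (108203952 to 108205961) and the Cyanase hotspot 2089 bp (108203886 to 108205974). The DNase I hotspot of 570 bp, from 108205008 to 108205577, did not reach the TSS. The 1056 bases before it that both other enzymes covered had a GC content of 61.65%. The remaining TSSs of Apoh, at 108242478 and 108242483, lay in no hotspot of any list.

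The 14 regions of the Apoh window held 7 with hotspots of all 3 lists, 4 without DNase I, 2 with DNase I alone and 1 with Benzonase and DNase I. The regions of DNase I alone were intronic, 475 and 516 bp wide, with GC contents of 47.16% and 49.22%. Those without DNase I comprised an intronic region of 746 bp (GC 46.92%), a region of Cyanase alone of 494 bp over an exon (GC 52.43%) and regions of 507 and 531 bp downstream of the gene (GC 55.23% and 45.95%). The first of the downstream regions had the highest GC content of the 6 regions with both Benzonase and Cyanase and no DNase I, and its central 150 bases (GC 57.33%, 1 CpG) are shown beside the sequences above.
Apoh downstream region, chr11:108278225-108278374, plus strand: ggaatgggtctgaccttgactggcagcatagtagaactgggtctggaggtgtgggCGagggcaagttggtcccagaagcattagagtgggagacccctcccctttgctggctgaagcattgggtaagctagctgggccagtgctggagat

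Apoa2 (ENSMUSG00000005681.6, plus strand, chr1:173155185-173156510) encodes another abundant protein of high-density lipoprotein, and its promoter hotspots had similar bounds in the 3 lists. Its 4 TSSs lay in hotspots of 849 bp (Benzonase, 173154771 to 173155619), 840 bp (Cyanase, 173154782 to 173155621) and 823 bp (DNase I, 173154747 to 173155569). Over exons of Apoa2 a Benzonase hotspot of 615 bp had no partner (173155833 to 173156447, GC 52.68%), so that Benzonase covered 79.2% of the gene body, Cyanase 33.0% and DNase I 29.0%. Behind the gene, DNase I alone gave regions of 625 bp (173157086 to 173157710, GC 48.64%) and 537 bp (173158339 to 173158875, GC 40.93%).

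For Benzonase and Cyanase the widest hotspots of the Apoa2 locus lay at the neighboring gene Tomm40l and ended before the promoter. The region there held 2 Benzonase hotspots of 3312 and 694 bp, 2 Cyanase hotspots of 3461 and 680 bp and 3 DNase I hotspots of 792, 912 and 961 bp. Of the 10 regions of this locus, 6 had hotspots of all 3 lists, 2 had DNase I alone and 2 had no DNase I. Nr1i3, which encodes the nuclear receptor CAR and lies upstream of Apoa2, had a TSS in hotspots of all 3 lists.

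**Figure D4:**
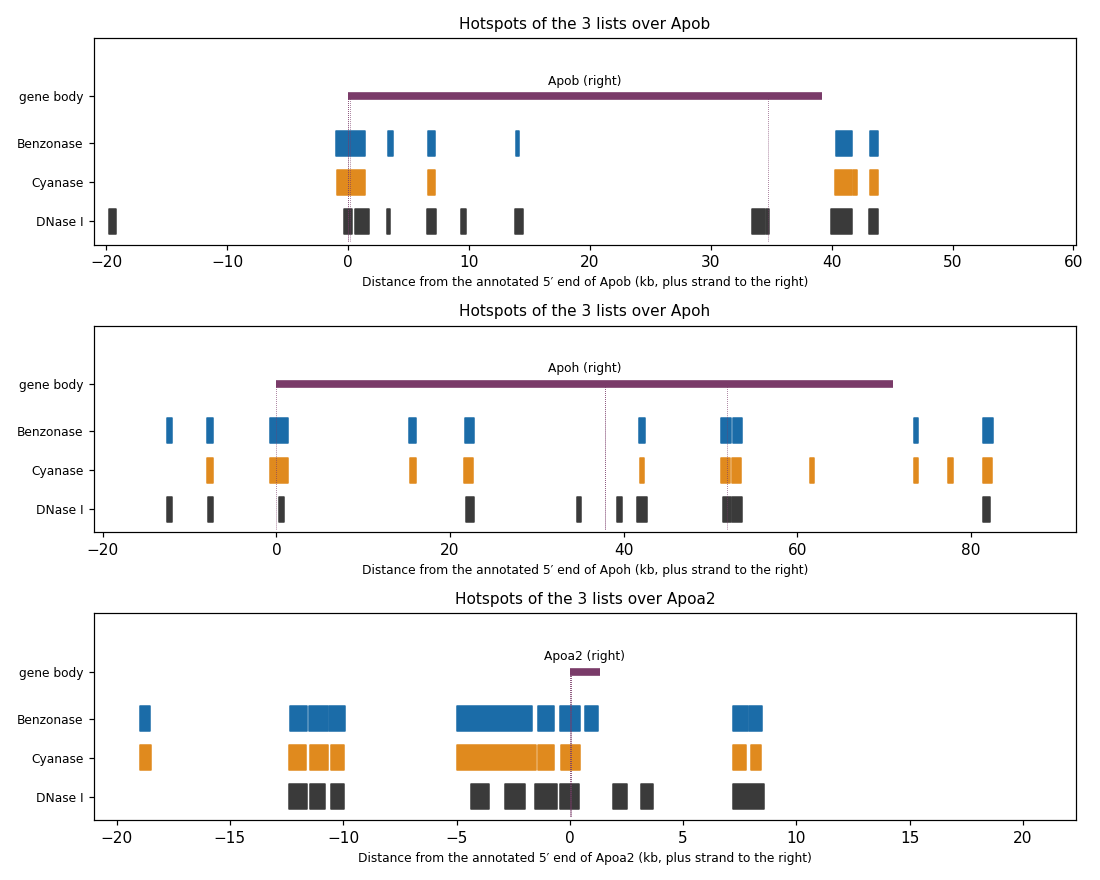
Hotspots of the 3 lists along Apob, Apoh and Apoa2, with the distance from the annotated start of each gene in kb on the horizontal axis and TSSs as dotted lines. In the Apob panel 4 DNase I bars have no partner in the other rows, and in the Apoh panel the DNase I bar near 0 lies to the right of the first TSS.

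Counted per gene, the windows of the clustered genes and of Apoa2 were dense in hotspots. The Apoa4 window held 15 Benzonase hotspots, or 3.508 per 10 kb, where the median over all genes was 0.3834, and 0.0179% of genes had as high a density or higher. Windows of the 4 genes on chromosome 9 overlap and share hotspots, as do those of Apoe and Apoc1. The densities within each cluster are therefore not separate measurements. Apoe and Apoc1 had 3.251 and 3.243 DNase I hotspots per 10 kb, and Apoa2 had 2.42 Benzonase hotspots per 10 kb. The long genes Apob and Apoh had lower densities, with 0.7577 and 0.9006 Benzonase hotspots per 10 kb beside an upper quartile of 0.7335 over all genes. For DNase I they had 1.389 and 0.9006 per 10 kb beside an upper quartile of 0.8164, and 7.32% of genes were as dense as Apob or denser.

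Taking the 5 loci together, 44 of the 70 regions (62.9%, 51.15% to 73.23%) had hotspots of all 3 lists, beside 40.0% of all regions. DNase I alone was found at 10 regions (14.3%, 7.949% to 24.34%) beside 28.3%, and 11 regions (15.7%, 9.008% to 25.99%) had no DNase I hotspot beside 26.3%. Regions with a TSS are more often common to the lists, so the counts were also made apart. Of 20 regions with a TSS of any gene, 19 had all 3 lists (78.1% in the series), 1 had DNase I alone (1.89%) and 0 lacked DNase I (19.0%). Of the 50 regions without a TSS, 25 (50%) had all 3 lists (33.8% in the series), 9 had DNase I alone (32.5%) and 11 lacked DNase I (27.4%). Regions of 1 locus lie side by side, and the intervals treat them as separate draws.

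Hotspots in the windows were somewhat wider than in the lists as a whole, without a split by TSS. Of the 70 regions in the windows 20 held a TSS, beside 13076 of 94491 in the series. Median widths were 772.5 bp for Benzonase (order-statistic interval 680 to 978 bp), 755 bp for Cyanase (654 to 949 bp) and 765.5 bp for DNase I (672 to 938 bp), where the whole lists had 652, 641 and 649 bp. Hotspots over 1 kb made up 32.3%, 30.5% and 32.8% of those in the windows, beside 22.5%, 20.2% and 13.2% of the lists. The windows had 16.78%, 16.07% and 15.96% of their bases in hotspots, beside 1.811%, 1.658% and 1.953% of the genome.

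Bounds were compared in the 37 regions that held exactly 1 hotspot of each list. Benzonase and Cyanase starts differed by a median of 20 bp and ends by 21 bp, and a median of 94.71% of the bases under either hotspot were shared (90.59% over 33922 such regions of the series). DNase I and Benzonase starts differed by 72 bp and ends by 52 bp, with 82.67% of bases shared (79.67% in the series). In the 14 of these regions that held a TSS, DNase I was wider than Benzonase in 1, with a median difference of -166 bp, and in the 23 without a TSS it was wider in 13, with a median difference of 14 bp. The same split over the series gave DNase I as the wider one in 13.6% of regions with a TSS and in 57.5% of those without. With a TSS, median widths were 1063, 1005 and 811.5 bp (Benzonase, Cyanase and DNase I), narrower than the 1206, 1121 and 824 bp of the series. Without a TSS they were 787, 773 and 767 bp, wider than the 689, 660 and 729 bp of the series. This comparison leaves out regions with more than 1 hotspot of a list, such as those at Apoa1, Apob and Apoc1. At 1 TSS per gene, without that limit, the 9 genes had medians of 1440, 1374 and 823 bp in the same order. All genes with such a TSS had 1317, 1214 and 858 bp.

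The base composition of the regions differed with the lists that held them. Mean GC content was 50.51% ± 5.092 (SD, n = 44 regions) for all 3 lists, 44.06% ± 5.749 (n = 10) for DNase I alone and 51.43% ± 5.027 (n = 11) without DNase I, where the series had 50.02%, 42.35% and 54.73%. The ranges overlapped, since regions of DNase I alone reached 49.95% and those without DNase I began at 45.95%. Regions without DNase I had a mean close to that of all 3 lists. The 6 of them with both Benzonase and Cyanase had 50.13%, beside 56.0% in the series. Counted base by base, the 43.28 kb under all 3 lists had a GC content of 51.44%, the 12.18 kb under both Benzonase and Cyanase without DNase I had 53.44%, the 11.19 kb under DNase I alone had 44.11%, and the 289.1 kb of the windows under no list had 45.26%. In each of the 5 loci the bases of DNase I alone had a lower GC content than those of Benzonase and Cyanase without DNase I. The difference was smallest at Apoa2 and Apoa1 to Apoa5, with 45.41% beside 51.08% and 45.83% beside 52.2%, and it was largest at Apoc1 and Apoe, with 45.71% beside 56.69%.

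Stretches of at least 200 bp inside the windows were also compared. The 20 stretches of Benzonase and Cyanase without DNase I had GC contents from 46.0% to 71.49% (median 53.61%), and the 18 stretches of DNase I without the others had 31.07% to 49.95% (median 45.24%). Within regions common to all 3 lists, 14 stretches of the first kind had a median of 54.65%, and 7 of the second kind had 44.98%. No tag counts were available per stretch, so how far cut preference, depth or the calling threshold enter into these bounds was not tested.

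**Figure D5:**
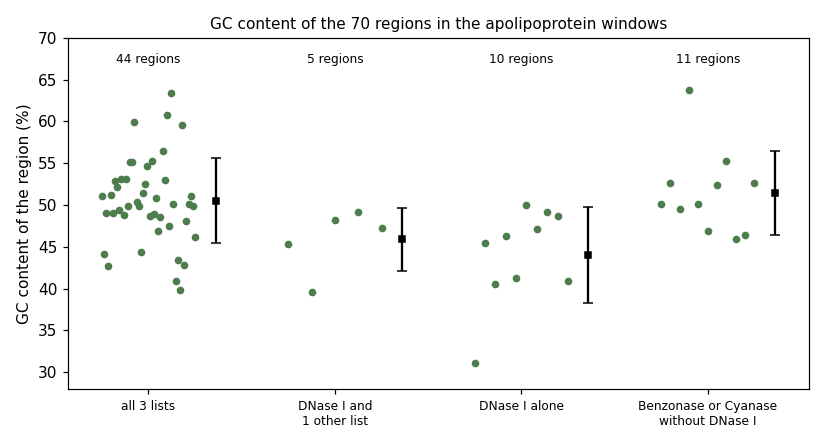
GC content in percent of each of the 70 regions in the apolipoprotein windows, grouped by the lists with a hotspot there. Points are regions, and squares with bars give the mean and SD over regions. The points of DNase I alone lie between 31.07% and 49.95%, and those without DNase I lie between 45.95% and 63.75%.

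Genes of lipoprotein metabolism other than these 9 were read from a list of 26. Of these, 22 had a TSS in a Benzonase hotspot (57.4% of all genes), 24 in a Cyanase hotspot (55.7%) and 20 in a DNase I hotspot (47.4%), and 20 had all 3 (46.1%). Among the enzymes and transfer proteins, Lcat, Lipc, Lpl and Mttp had all 3, and Pltp had Cyanase alone with a hotspot of 254 bp. Among receptors and transporters, Lrp1 (2769, 2739 and 1810 bp in the order Benzonase, Cyanase and DNase I) and Abca1 had all 3. Scarb1, a receptor for high-density lipoprotein, and Abcg1, a cholesterol exporter, had Benzonase and Cyanase without DNase I. Gpihbp1, which anchors lipoprotein lipase in capillary endothelium, had Cyanase alone with 359 bp. The apolipoprotein genes Apof and Apod had no TSS in any hotspot.

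The liver label was checked against marker genes, beside the shares of 57.4%, 55.7% and 47.4% of all genes with a TSS in a hotspot of Benzonase, Cyanase and DNase I. All 6 hepatocyte markers, Apoa1 among them, had a TSS in hotspots of each list. Of 4 Kupffer cell markers 0, 1 and 3 had one (Benzonase, Cyanase and DNase I), of 4 sinusoidal endothelial markers 2, 2 and 1, of 4 stellate cell markers 2, 3 and 0, and of 4 bile duct markers 2, 1 and 1. Of 4 markers of enterocytes, which also make several apolipoproteins, only Fabp2 had a hotspot at its TSS, and only in the DNase I list. With 4 markers a list, counts of 2 or 3 are near the share of all genes, and nothing is read from them. A smaller number of cells of a type and less accessible chromatin per cell cannot be told apart in whole tissue.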

How the data were processed

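The 7 samples were male C57BL/6 livers, grouped by the nuclease in their labels. The authors aligned tags to mm9, pooled them per nuclease and called input-adjusted hotspots at a false discovery rate of 0%. The deposited score-free lists hold only chromosome, start and end (0 columns of other samples), so depth is unknown. Starts were converted to count from 1.

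Genes and the TSSs of protein-coding transcripts came from GENCODE M1 on NCBIM37, the same assembly as mm9. Hotspots belonged to a window when any base overlapped it and were merged across lists when they shared at least 1 bp, and bedtools 2.31.1 gave the same 94491 regions. On simulated lists, the number of regions found in each class equalled the number planted, with 7000 of 7000 in all. The planted regions lay far apart, so hotspots as close together as those in these windows were not tested. In the lists 2 regions ended past a chromosome end and were shortened for GC content. Shares carry Wilson intervals and medians binomial order-statistic intervals.

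The 9 genes, the gene lists, the motifs and the rule for the hotspots named (those over a TSS of a member, unshared regions in or within 2 kb of a member, and the widest of each locus) were chosen with earlier results of these data known. The unshared regions and stretches elsewhere, and Fabp2, were named after their values were seen. The values of 1 gene of the lipoprotein list are not reported here. Alternatives were other window sizes, hotspot midpoints, a 50% overlap, joining within 150 bp, merging within a list, leaving out narrow hotspots, other TSS rules and central 150 bp for GC content. Python 3.11.15, numpy 2.4.6, pandas 2.3.3, scipy 1.17.1 and matplotlib 3.10.9 were used.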

Additional observations from a re-analysis of the deposited data

How the results depend on the processing

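Of 101 values recomputed under other settings, 92 stayed within the limits set for them and 9 moved. The limits were 1.5 times for counts, ratios and covered shares, the interval for medians and 1 SD for GC content. Changes of direction were not scored. With the widest hotspot over any TSS, the median ratio of Benzonase to DNase I width over the 9 genes rose from 1.202 to 1.778. That median lay below the 1.418 of all genes before and above their 1.42 after, and it counted as the same. For Cyanase it was 1.089 beside 1.303 and then 1.696 beside 1.305. With 5 kb beside the genes in place of 20 kb, the windows held 39 Benzonase, 36 Cyanase and 41 DNase I hotspots and 46 regions, of which 25 had all 3 lists, since the windows were shorter. With an overlap of 50% of both hotspots, regions of DNase I alone rose from 10 to 20 and regions without DNase I from 11 to 22, because hotspots of unequal width such as those at Apoa1 and Apob no longer joined. When hotspots narrower than the first quartile of each list were dropped, regions of DNase I with 1 other list went from 5 to 3, and the genes with a TSS in a DNase I hotspot from 9 to 8, because the Apoa4 hotspot of 447 bp fell out. When only the annotated 5′ end of each gene counted, DNase I also had 8 of 9, because the first TSS of Apoh was not covered. Settings added once the data had been seen were the widest hotspot over any TSS, which raised the median ratio of Cyanase to DNase I width over the 9 genes from 1.089 to 1.696 because of Apoh, and a count that left out regions over a TSS of another gene, where 34 of the remaining 60 regions had all 3 lists.

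No paired analysis was possible because each list was called on pooled samples, so a sample could not be left out either. Without tag counts, a missing hotspot cannot be set against the depth at that place, and the part of the hotspot calling in the bounds was not tested.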
